A study of Mus musculus with 35 samples.

Results

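The homeostatic microglia genes described here are P2ry12, P2ry13, Tmem119, Cx3cr1, Siglech, Sall1, Gpr34, Olfml3, Csf1r and Aif1, 10 genes picked by symbol from the 21203 genes of the deposited table. Microglia are the resident macrophages of the brain. In the healthy brain they keep up a set of receptors, surface proteins and a transcription factor with which they sense their surroundings, and these genes serve as markers of that surveying state. Several of them, P2ry12, Tmem119 and Sall1 among them, are known to be lowered when microglia take on an activated state. Some, such as Csf1r and Aif1 (the gene of IBA1), are also carried by other macrophages, including those that enter from blood.

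The libraries came from a rectangular piece of the left hemisphere around the injection site, labelled left cortex, of young adult male C57BL/6NCrl mice, with 1 library per mouse. Sham mice had neither injury nor treatment, and all other mice had a closed head injury and on day 5 an injection into the left hippocampus of PBS, of mesenchymal stromal cells (MSCs) from 1 commercial lot of C57BL/6N cells, or of such MSCs transfected with synthetic mRNA of interleukin-4 (IL-4 MSCs). In comparisons with Sham the injury and the injection therefore cannot be told apart. Tissue was taken 2 days after treatment (1 week after injury, 1 wpi) or 16 days after treatment (3 wpi). There were 4 mice in the PBS group of 3 wpi and 5 in every other group, and the Sham group joined 2 mice of 1 wpi and 3 mice of 3 wpi. The injected cells were mouse cells, so any RNA of theirs was counted with that of the host. Mice of a treated group share the number before the dash in their label, and what that number stands for is not given, so anything that went with it cannot be told apart from the group.

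The 34 libraries held 29838423 to 41554322 estimated counts. Levels are given as CPM, counts scaled to the library total, and the lowest count of any of the 10 genes in any library was 98, for Aif1 in a Sham mouse. Differences between groups are log2 fold changes from 1 edgeR quasi-likelihood model of the 34 libraries, in which 17131 genes had enough counts to be tested, all 10 among them. A gene was called changed at a Benjamini-Hochberg adjusted p under 0.05 over those 17131 genes, and the median log2 fold change over all genes lay between -0.02 and 0.03 in the 15 comparisons between groups. The 12 neuron markers summed to 9678 to 10610 CPM in Sham, as in neural tissue, and the 10 microglia genes to 236 to 299 CPM. These are bulk tissue data, in which fewer cells of a type and less RNA of a gene per cell cannot be told apart.

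Compared per length, in the TPM values deposited by the authors, which are scaled by transcript length, Csf1r was the most abundant of the 10 genes in Sham at 78.95 ± 14.04 TPM (mean ± SD, n = 5). P2ry12 followed at 49.7 ± 3.47 TPM and Cx3cr1 at 26.99 ± 1.46 TPM, and the mice of these 3 genes and of the next did not overlap. Tmem119 (17.2 ± 1.76 TPM), Siglech (15.7 ± 1.90 TPM), Aif1 (12.3 ± 3.08 TPM), Gpr34 (10.9 ± 1.25 TPM) and Sall1 (10.8 ± 0.477 TPM) overlapped with their neighbours in this order. P2ry13 (7.21 ± 1.36 TPM) and Olfml3 (6.92 ± 1.93 TPM) were lowest and overlapped with each other.

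A pair of mice stood apart from their groups in these genes before any comparison. Sham replicate 5 had 119 CPM of Csf1r against 78.2 to 82.95 in the other 4 Sham mice, 26.4 against 14.3 to 16.6 CPM of Olfml3 and 5.03 against 2.96 to 3.35 CPM of Aif1. Its P2ry13, at 5.98 CPM, was the lowest of all mice. In that mouse the 12 cell cycle genes summed to 30.5 CPM against 18.4 to 20.1, and the 10 border-associated macrophage genes to 52.6 against 31.3 to 39.2. MSC replicate 5 at 3 wpi had 20.2 CPM of P2ry12 against 30.04 to 33.2 in the other 4 mice of its group and 5.34 against 10.2 to 12.6 CPM of Gpr34, together with 31.6 against 19.5 to 23.8 CPM of Olfml3. Its border-associated macrophage genes summed to 82.8 CPM against 36.6 to 44.96. Results that turn on either mouse are given with and without it.

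**Figure D1:**
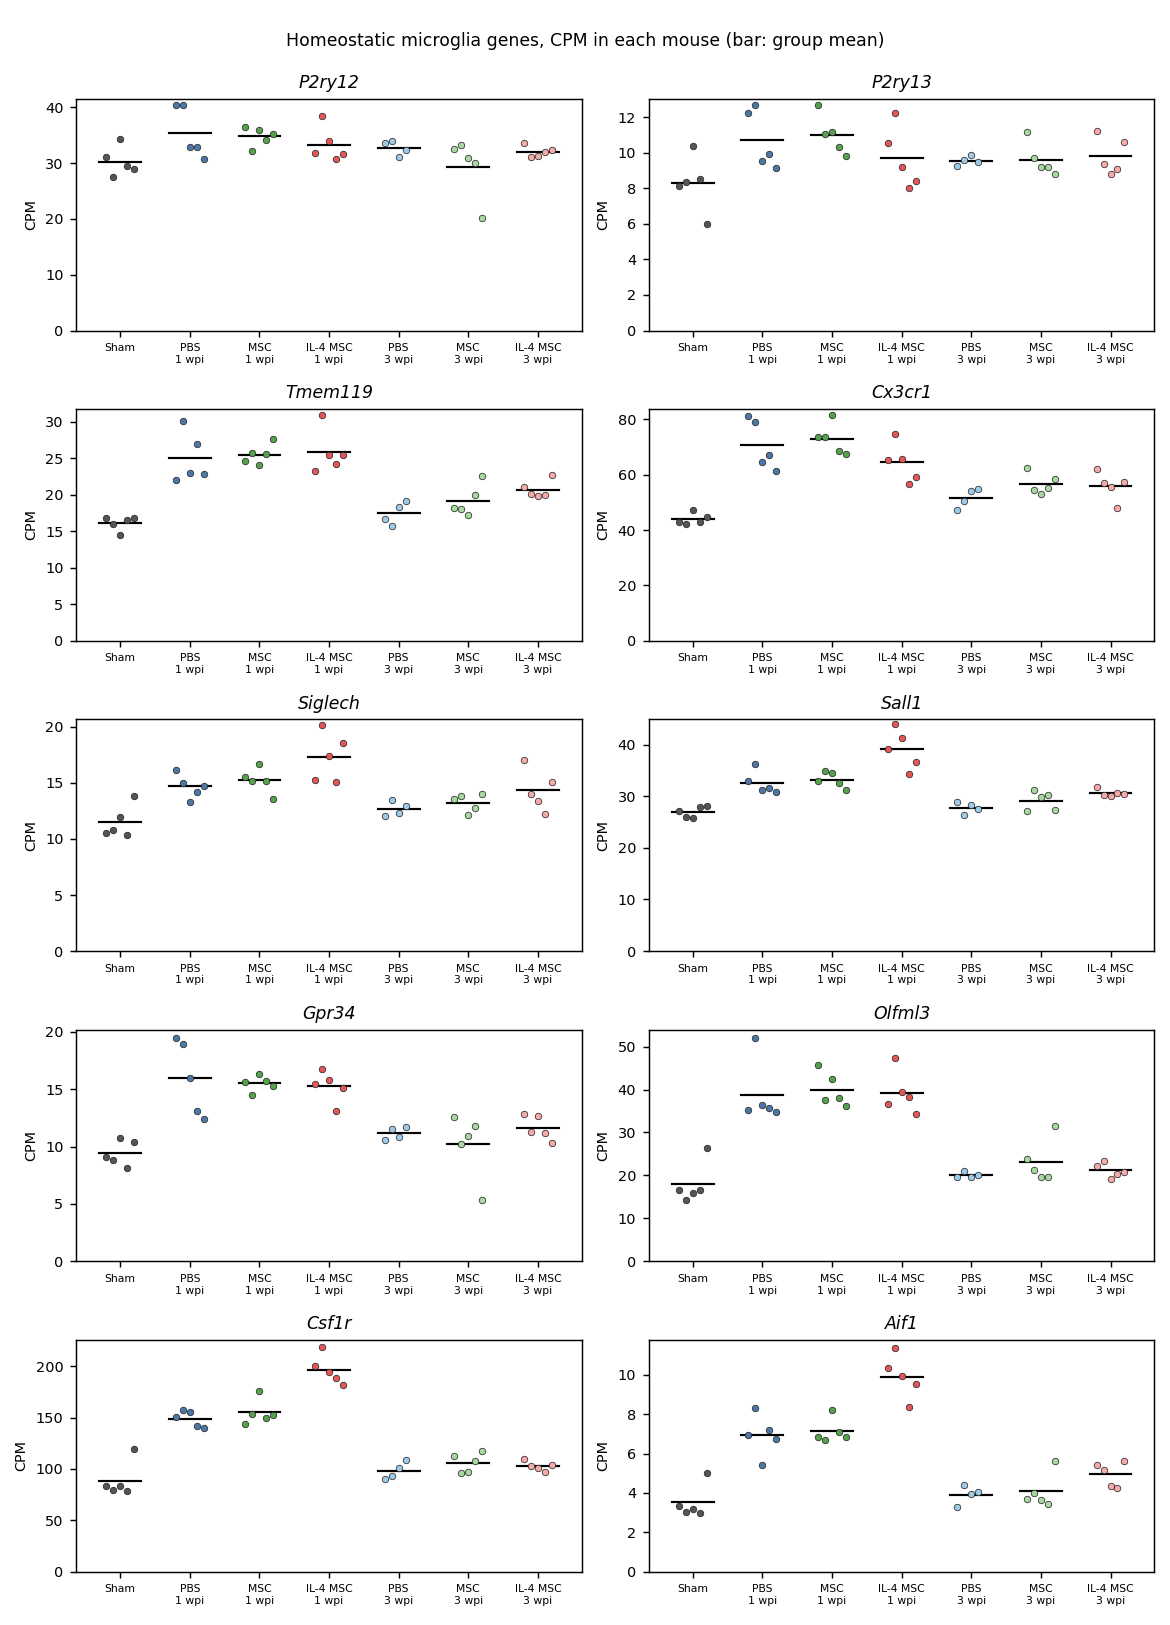
CPM (linear axis from 0) of the 10 homeostatic microglia genes in each mouse, by group, with the bar at the group mean. P2ry12 stayed near its Sham level in all groups, Olfml3, Csf1r and Aif1 stood well above Sham at 1 wpi, and Csf1r and Aif1 were highest in IL-4 MSCs at 1 wpi, where Csf1r ran from 182 to 219 CPM.

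The genes lie on 8 chromosomes, and P2ry12 (chr3:59216272-59262871, minus strand) and P2ry13 (chr3:59207892-59210882, minus strand) are neighbours 5389 bases apart (GRCm38). Both lie inside Med12l on the opposite strand, and Gpr34 lies inside Cask on the opposite strand. The annotated span of Cx3cr1, 168264 bases, overlaps Gorasp1, Csrnp1 and Xirp1 on the same strand and other genes on the opposite strand. Whether Cx3cr1 shared reads with any of them was not tested. The estimated counts of Cx3cr1, Siglech and Olfml3 were not whole in any of the 34 libraries, which shows reads shared with other transcripts, and those of Sall1 and Csf1r were whole in 1 library each. P2ry12, P2ry13, Tmem119, Gpr34 and Aif1 had whole counts in all 34 libraries, to within 0.01 counts.

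RefSeq promoter sequences on GRCm38.p6, from 250 bases before to 50 bases after a transcription start, were at hand for 7 of the 10 genes, 9 sequences in all with 3 for Sall1. Tmem119, Gpr34 and Csf1r had none. The promoters shown are those of P2ry12 and P2ry13, the neighbouring ADP receptors, of which P2ry12 was not called at 1 wpi and P2ry13 only in MSCs, and of Olfml3 and Aif1, whose changes were large in all 3 injured groups. All are from the minus strand, written 5′ to 3′, with capitals marking GAGGAA, the core of the site bound by PU.1 (the product of Spi1, a transcription factor that microglia need), or its reverse complement.
P2ry12 (chr3:59262936-59263235): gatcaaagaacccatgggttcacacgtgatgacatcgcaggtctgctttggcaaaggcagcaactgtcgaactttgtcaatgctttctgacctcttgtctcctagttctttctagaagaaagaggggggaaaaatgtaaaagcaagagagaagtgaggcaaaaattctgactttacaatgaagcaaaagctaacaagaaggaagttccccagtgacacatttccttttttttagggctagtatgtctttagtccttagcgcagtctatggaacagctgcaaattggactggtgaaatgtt
P2ry13 (chr3:59210833-59211132): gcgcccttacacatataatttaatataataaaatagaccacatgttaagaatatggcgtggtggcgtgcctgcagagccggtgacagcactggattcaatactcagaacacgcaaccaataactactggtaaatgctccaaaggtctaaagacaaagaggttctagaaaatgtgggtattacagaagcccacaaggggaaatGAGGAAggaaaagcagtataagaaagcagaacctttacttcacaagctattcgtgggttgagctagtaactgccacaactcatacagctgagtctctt
Olfml3 (chr3:103737952-103738251): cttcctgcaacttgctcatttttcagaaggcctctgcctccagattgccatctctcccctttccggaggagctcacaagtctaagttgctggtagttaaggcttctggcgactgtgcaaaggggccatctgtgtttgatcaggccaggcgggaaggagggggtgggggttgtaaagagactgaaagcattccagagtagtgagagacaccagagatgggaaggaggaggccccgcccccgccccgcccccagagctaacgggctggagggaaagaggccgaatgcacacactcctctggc
Aif1 (chr17:35176003-35176302): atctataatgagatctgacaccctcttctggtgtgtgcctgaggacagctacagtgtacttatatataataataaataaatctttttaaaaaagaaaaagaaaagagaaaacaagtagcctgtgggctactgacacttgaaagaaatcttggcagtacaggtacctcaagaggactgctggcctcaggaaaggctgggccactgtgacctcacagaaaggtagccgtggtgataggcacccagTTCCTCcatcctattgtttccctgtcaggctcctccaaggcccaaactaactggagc
Searched on both strands, GAGGAA occurred in the promoters of P2ry13, Siglech and Aif1, beginning 48, 4 and 7 bases before the start, or 3 of the 9 sequences, against 28.3% of all 32851 promoters of this length. The core of the MEF2 site, searched as CTA and TAG with 4 bases of any kind between them, occurred in 1 of the 9, that of Cx3cr1, 67 bases before the start, against 3.69% of all promoters. The composite site of PU.1 and IRF factors, searched as GGAA and GAAA with 2 bases between them, which overlaps the Ets core of the first motif, occurred in 0 of the 9 against 2.72% of all promoters. A match is a run of letters and not a measured site.

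At 1 wpi all 10 genes had positive log2 fold changes from Sham in the 3 injured groups, and none was called lower. In PBS 8 were called higher than in Sham, where 8.73% of all genes tested were, in MSCs 9 (11% of all genes) and in IL-4 MSCs 8 (18.4% of all genes). The median log2 fold change of the 10 genes was 0.62, 0.64 and 0.57 in this order, beside -0.01, -0.01 and -0.02 over all genes. Values of all injured mice lay above all Sham mice for 7 genes in PBS (8.09% of all genes), 7 in MSCs (11.3%) and 8 in IL-4 MSCs (20.6%). The calls of Olfml3, Csf1r and Aif1 all held without Sham replicate 5. The 3 comparisons share the 5 Sham mice and are not independent of each other.

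P2ry12 and P2ry13 are receptors for ADP, and through P2ry12 microglial processes home on injured cells. P2ry12 moved least of the 10 genes. It stood at 31.02, 27.4, 34.3, 29.5 and 28.9 CPM in the Sham mice. It stood at 40.5, 40.5, 32.9, 32.8 and 30.8 CPM in PBS and 36.4, 32.3, 35.97, 34.2 and 35.2 CPM in MSCs at 1 wpi. In IL-4 MSCs it stood at 31.8, 38.5, 34.03, 30.7 and 31.6 CPM. The groups overlapped, and the log2 fold changes from Sham of 0.19 (SE 0.09, adjusted p = 0.187), 0.15 (SE 0.09, adjusted p = 0.293) and 0.07 (SE 0.09, adjusted p = 0.632) in PBS, MSCs and IL-4 MSCs did not pass the test. P2ry13 stood at 8.15, 8.33, 10.4, 8.49 and 5.98 CPM in Sham. It stood at 12.2, 12.7, 9.53, 9.92 and 9.16 CPM in PBS, 12.7, 11.04, 11.1, 10.3 and 9.83 in MSCs and 10.5, 12.2, 9.19, 8.04 and 8.39 in IL-4 MSCs. Here PBS and MSC mice lay mostly above Sham, with the highest Sham mouse, at 10.4 CPM, inside their range. P2ry13 rose in MSCs, by 0.36 (SE 0.12, adjusted p = 0.0295), and not past the threshold in PBS, at 0.33 (SE 0.12, adjusted p = 0.0556), or IL-4 MSCs, at 0.15 (SE 0.12, adjusted p = 0.344). The call in MSCs was narrow. It was lost when Sham replicate 1, 2 or 5 or MSC replicate 1 or 3 was left out, with an adjusted p of 0.108 without Sham replicate 5, and against the 2 Sham mice of 1 wpi alone the log2 fold change was 0.17 (adjusted p = 0.482). In PBS it was gained without Sham replicate 3, PBS replicate 3 or 5 or IL-4 MSC replicate 2 (adjusted p = 0.0129 without Sham replicate 3), and also on library totals (adjusted p = 0.0314) and in DESeq2 (adjusted p = 0.0417).

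The other receptors rose in all 3 injured groups. Gpr34, a receptor for lysophosphatidylserine, ranged from 8.16 to 10.7 CPM in Sham, 12.4 to 19.5 in PBS, 14.5 to 16.4 in MSCs and 13.1 to 16.8 in IL-4 MSCs, with no overlap between Sham and injured mice. Its log2 fold changes were 0.73, 0.67 and 0.62, at adjusted p-values of 0.000422, 0.000799 and 0.000692. Cx3cr1, the receptor through which microglia receive the neuronal chemokine fractalkine (Cx3cl1), ranged from 42.1 to 47.2 CPM in Sham, 61.4 to 81.3 in PBS, 67.6 to 81.7 in MSCs and 56.8 to 74.8 in IL-4 MSCs. Its log2 fold changes were 0.65, 0.68 and 0.48, at adjusted p-values of 2.61e-07, 6.52e-08 and 5.5e-06.

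Csf1r, the receptor for the growth factors Csf1 and Il34 on which microglia depend for survival, stood at 82.95, 79.7, 82.8, 78.2 and 119 CPM in Sham. It stood at 151, 157, 155, 142 and 139.6 CPM in PBS and 144, 154, 176, 149 and 153 in MSCs. In IL-4 MSCs it stood at 200.5, 219, 194, 189 and 182 CPM. All injured mice lay above all Sham mice, including the high Sham mouse, and the IL-4 MSC mice lay above all others. The log2 fold changes from Sham were 0.71 (SE 0.08, adjusted p = 2.18e-07) in PBS, 0.76 (SE 0.08, adjusted p = 4.2e-08) in MSCs and 1.08 (SE 0.08, adjusted p = 2.52e-12) in IL-4 MSCs.

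Of the surface proteins, Tmem119, a transmembrane protein that within the brain marks microglia and not entering macrophages, rose by a similar amount in all 3 groups. It ranged from 14.4 to 16.8 CPM in Sham, 21.9 to 30.1 in PBS, 24.01 to 27.6 in MSCs and 23.2 to 30.9 in IL-4 MSCs. The log2 fold changes were 0.60, 0.61 and 0.61, at adjusted p-values of 2.56e-06, 1.06e-06 and 2.38e-07. Siglech, a lectin that binds sialic acid, ranged from 10.3 to 13.9 CPM in Sham, 13.3 to 16.2 in PBS, 13.6 to 16.7 in MSCs and 15.1 to 20.2 in IL-4 MSCs. It rose by 0.32, 0.36 and 0.52, at adjusted p-values of 0.00994, 0.00263 and 9.19e-06, and only the IL-4 MSC mice lay all above Sham.

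Sall1, a zinc finger transcription factor that holds microglia in their identity, stood at 27.2, 25.9, 25.8, 27.9 and 28.1 CPM in Sham. It stood at 32.96, 36.2, 31.2, 31.6 and 30.9 CPM in PBS and 32.99, 34.9, 34.5, 32.5 and 31.1 in MSCs. In IL-4 MSCs it stood at 39.1, 43.99, 41.2, 34.3 and 36.7 CPM. Its mice did not overlap with Sham in any injured group, and the log2 fold changes were 0.24 (SE 0.05, adjusted p = 0.00167), 0.25 (SE 0.05, adjusted p = 0.000632) and 0.46 (SE 0.05, adjusted p = 1.04e-08). Its paralog Sall2, which stood at 77.7 CPM in Sham, had log2 fold changes of -0.03, -0.09 and -0.15, of which only that in IL-4 MSCs passed the test (adjusted p = 0.0193). Another paralog, Sall3, named here after its values were seen, stood at 7.38 CPM in Sham and rose in the 3 groups, by 0.40, 0.33 and 0.30 (adjusted p = 0.00291, 0.0116 and 0.0118).

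Olfml3 and Aif1 rose most with PBS and with MSCs. Olfml3, a secreted glycoprotein of the olfactomedin family, stood at 16.5, 14.3, 15.9, 16.6 and 26.4 CPM in Sham. It stood at 35.1, 52.05, 36.5, 35.6 and 34.8 CPM in PBS and 45.6, 37.5, 42.4, 37.9 and 36.05 in MSCs. In IL-4 MSCs it stood at 36.6, 47.2, 39.5, 38.2 and 34.2 CPM. Every injured mouse lay above every Sham mouse and the 3 injured groups overlapped. The log2 fold changes were 1.08 (SE 0.13, adjusted p = 7.28e-07), 1.11 (SE 0.13, adjusted p = 2.73e-07) and 1.05 (SE 0.13, adjusted p = 1.14e-07). Aif1, the gene of the calcium- and actin-binding protein IBA1 with which microglia are stained, stood at 3.35, 3.01, 3.20, 2.96 and 5.03 CPM in Sham. It stood at 6.94, 8.32, 5.44, 7.20 and 6.75 CPM in PBS and 6.86, 6.68, 8.20, 7.09 and 6.86 in MSCs. In IL-4 MSCs it stood at 10.4, 11.4, 9.92, 8.38 and 9.52 CPM, above all PBS and MSC mice, though only just above the highest PBS mouse. The log2 fold changes were 0.95 (SE 0.13, adjusted p = 6.14e-06), 0.98 (SE 0.13, adjusted p = 2.49e-06) and 1.43 (SE 0.13, adjusted p = 2.7e-10).

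**Figure D2:**
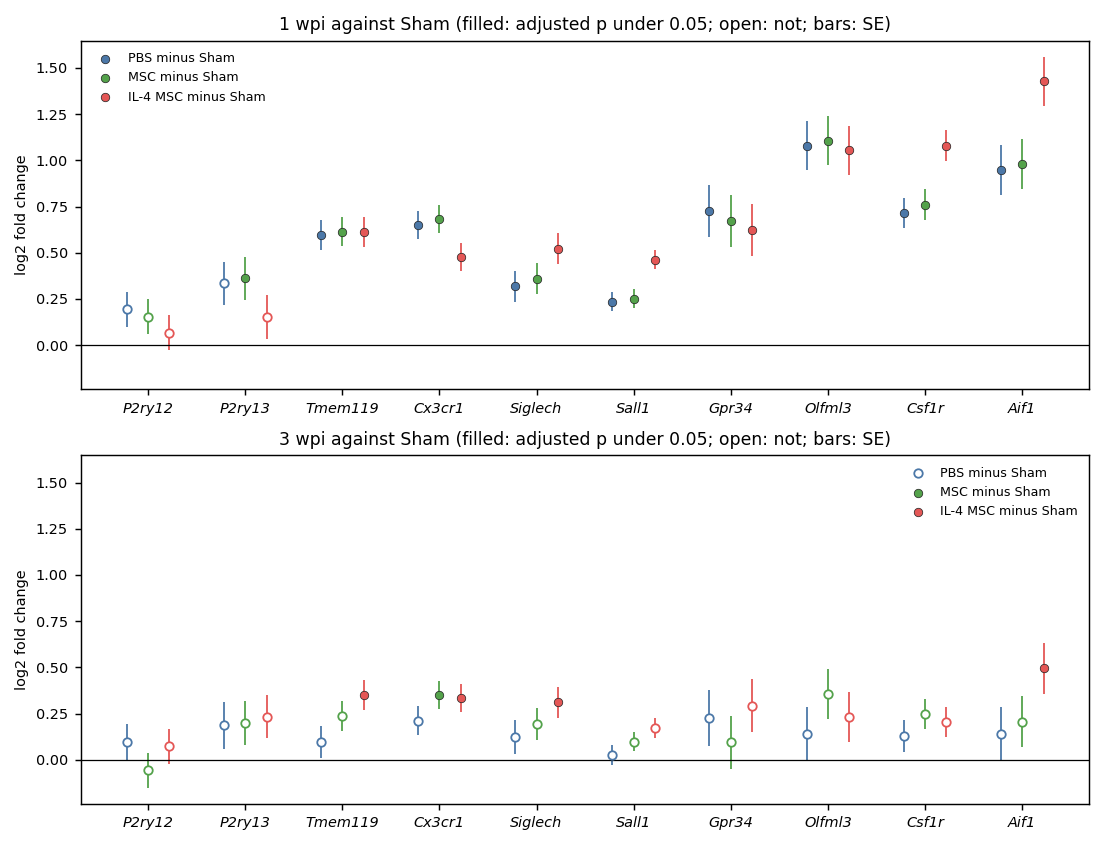
Log2 fold change from Sham (vertical axis, bars 1 SE) of each gene at 1 wpi (upper panel) and 3 wpi (lower panel) in PBS, MSCs and IL-4 MSCs, filled where the adjusted p was under 0.05. At 1 wpi the values ran from 0.07 for P2ry12 to 1.43 for Aif1, both in IL-4 MSCs, and at 3 wpi they lay between -0.06 and 0.49.

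The treatments were then compared with each other at 1 wpi. The question was whether MSCs or IL-4 MSCs changed these genes beyond injury and an injection of PBS. MSCs and PBS differed in none of the 10 genes, with log2 fold changes between -0.06 and 0.05, and 0.123% of all genes differed. In that comparison 0 of the 10 genes had an unadjusted p under 0.05 by edgeR or by DESeq2, beside 4.52% of all genes by edgeR. IL-4 MSCs had 3 genes higher and none lower than PBS, Csf1r, Aif1 and Sall1, where 11.2% of all genes were higher, and the same 3 genes higher than MSCs, where 7.66% of all genes were. These 2 comparisons share the IL-4 MSC mice. The medians over the 10 genes were -0.0041 against PBS and -0.03 against MSCs.

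Csf1r was higher by 0.37 (SE 0.08, adjusted p = 0.00132) than in PBS and by 0.32 (SE 0.08, adjusted p = 0.00728) than in MSCs, and all IL-4 MSC mice lay above all mice of either group, as did 11.5% and 8.61% of all genes. Aif1 was higher by 0.48 (SE 0.13, adjusted p = 0.00812) and 0.45 (SE 0.13, adjusted p = 0.0214), again with no overlap in CPM, which lack the TMM scaling of the model. Aif1 left a narrow gap there, at 8.38 CPM in the lowest IL-4 MSC mouse and 8.32 CPM in the highest PBS mouse. Its call against MSCs was lost when MSC replicate 2 or 5 or IL-4 MSC replicate 2 was left out, with adjusted p-values of 0.0592, 0.052 and 0.0677. Sall1 was higher by 0.23 (SE 0.05, adjusted p = 0.00179) and 0.21 (SE 0.05, adjusted p = 0.00532), and its mice overlapped, with the lowest IL-4 MSC mouse at 34.3 CPM and the highest PBS and MSC mice at 36.2 and 34.9 CPM.

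The other 7 genes were not called between IL-4 MSCs and either group. Olfml3 and Tmem119 had log2 fold changes against PBS of -0.02 (SE 0.13) and 0.01 (SE 0.08). Siglech stood at 0.20 (adjusted p = 0.0952) against PBS and 0.16 (adjusted p = 0.284) against MSCs. The chemokine and ADP receptors had values below 0, with Cx3cr1 at -0.17 (adjusted p = 0.117) and -0.21 (adjusted p = 0.09), P2ry13 at -0.18 (adjusted p = 0.324) and -0.21 (adjusted p = 0.331), and P2ry12 at -0.13 (adjusted p = 0.405) and -0.09 (adjusted p = 0.684). Cx3cr1 had an unadjusted p under 0.05 in both comparisons, and it was called lower against PBS without PBS replicate 5 (adjusted p = 0.0488) and against MSCs without IL-4 MSC replicate 2 (adjusted p = 0.0339). Siglech was called higher than in PBS without IL-4 MSC replicate 1 or 4 of 1 wpi or replicate 1 of 3 wpi, with adjusted p-values of 0.0408, 0.0342 and 0.0476.

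**Figure D3:**
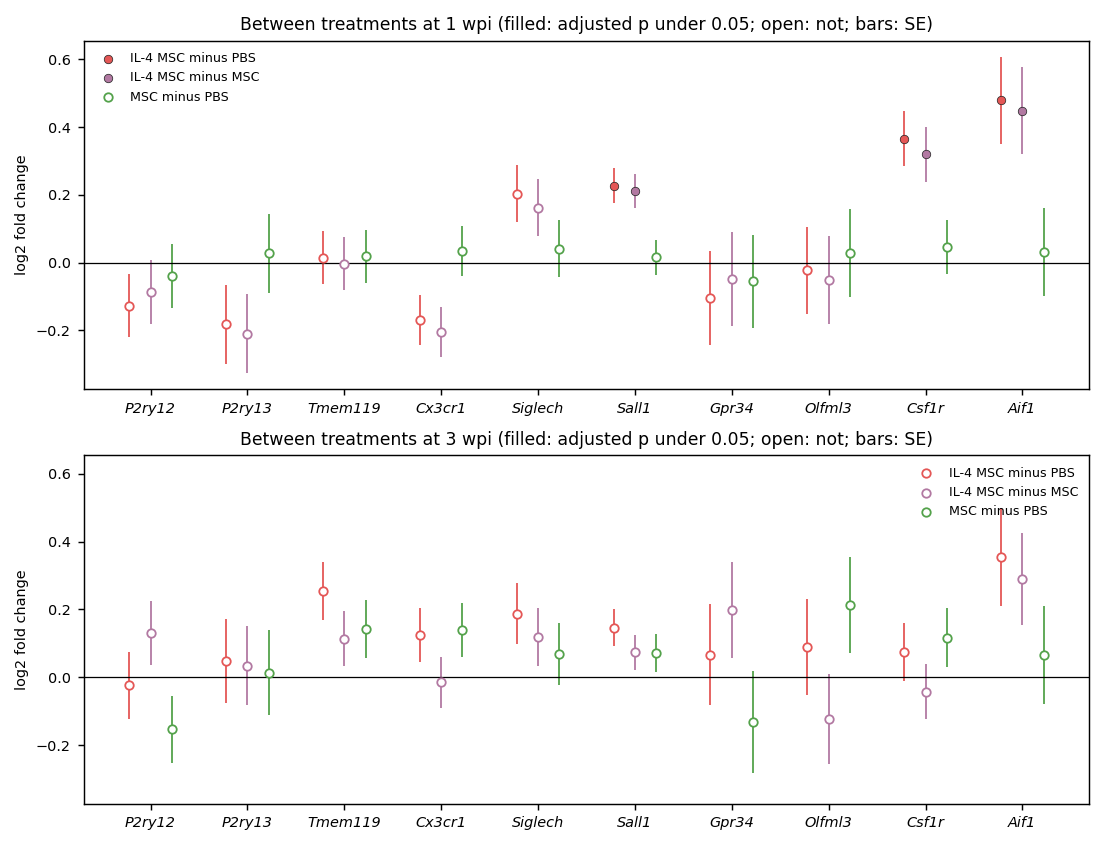
Log2 fold change between treatments (vertical axis, bars 1 SE) of each gene at 1 wpi (upper panel) and 3 wpi (lower panel), filled where the adjusted p was under 0.05. At 1 wpi only Sall1, Csf1r and Aif1 are filled, in both comparisons of IL-4 MSCs, and at 3 wpi no gene is.

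Ratios within a mouse do not depend on how libraries are scaled, and they are given as a description. The log2 ratio of P2ry12 to Csf1r ran from -2.04 to -1.27 in Sham, from -2.24 to -1.90 in PBS, from -2.29 to -1.98 in MSCs and from -2.66 to -2.51 in IL-4 MSCs at 1 wpi, where the IL-4 MSC mice lay below all mice of the other 3 groups. For P2ry13 to Csf1r it ran from -4.32 to -2.995 in Sham, with the high Sham mouse lowest, from -4.02 to -3.63 in PBS, from -3.98 to -3.50 in MSCs and from -4.55 to -4.16 in IL-4 MSCs. The ratio of Olfml3 to Csf1r in IL-4 MSCs, -2.46 to -2.21, overlapped with that in Sham, -2.48 to -2.17, while that of Aif1 to Csf1r in IL-4 MSCs, -4.49 to -4.25, lay above that in Sham, -4.72 to -4.57. The IL-4 MSC mice also lay below all mice of the other 3 groups in the ratio of Cx3cr1, -1.73 to -1.55 against -1.42 to -0.81 in Sham, and in that of Gpr34, -3.85 to -3.59 against -3.52 to -2.95. In the ratios of Tmem119, Siglech and Sall1 they overlapped with at least 1 of the groups. The denominator, Csf1r, was itself called higher in IL-4 MSCs than in each of those 3 groups, so a low ratio there carries its rise. With all 34 libraries in the fit, P2ry12, Cx3cr1 and Gpr34 were not called lower in IL-4 MSCs than in any of those groups. At 3 wpi the P2ry12 ratio in IL-4 MSCs, -1.73 to -1.59, lay within the range of Sham.

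**Figure D4:**
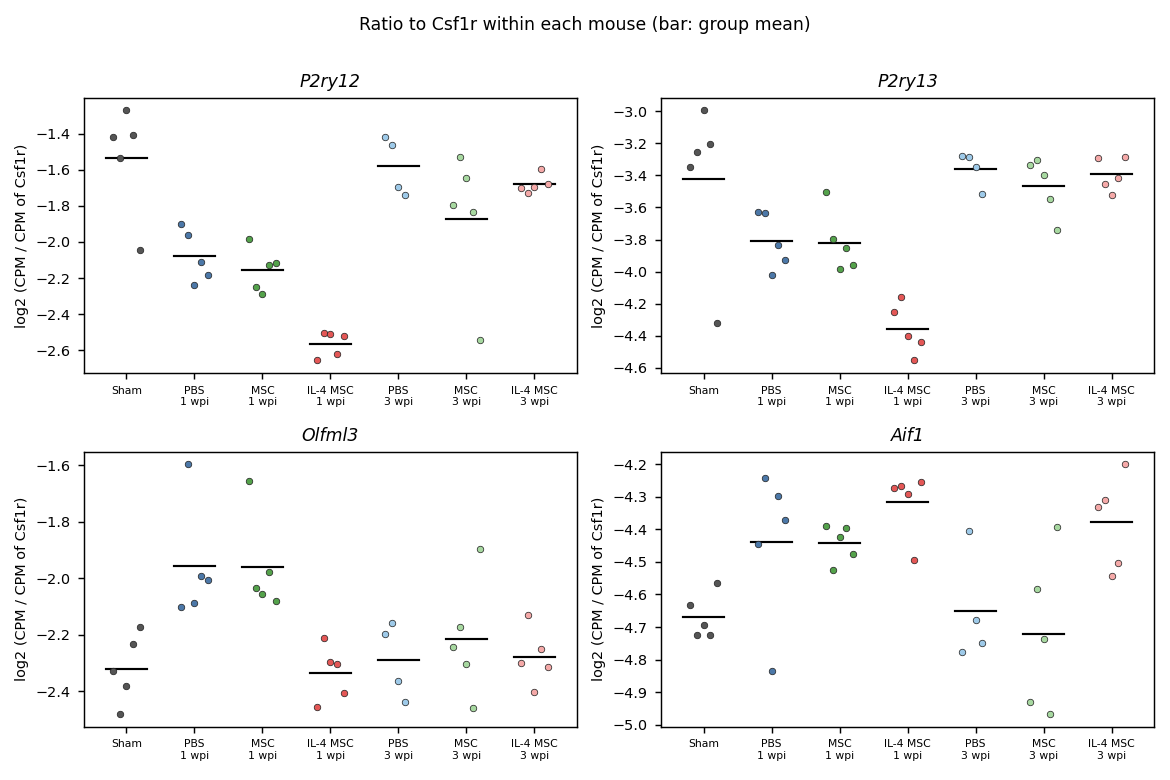
Log2 ratio of the CPM of P2ry12, P2ry13, Olfml3 and Aif1 to that of Csf1r in each mouse, by group, with the bar at the group mean. The P2ry12 ratio in IL-4 MSCs at 1 wpi, -2.66 to -2.51, is the lowest of the groups, with 1 mouse of MSCs at 3 wpi as low. Csf1r, the denominator, was itself highest in IL-4 MSCs at 1 wpi.

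Ligands, partners and transcription factors of these genes were followed in a list of 20 genes. In PBS at 1 wpi 12 of the 20 rose against Sham and 1 fell, in MSCs 12 rose and 1 fell, and in IL-4 MSCs 14 rose and 1 fell. The median log2 fold changes were 0.41, 0.50 and 0.63. Over all genes 8.73%, 11% and 18.4% rose in this order. Of the ligands, Csf1 rose by 0.62, 0.65 and 0.84 in the 3 groups, while Il34, the other ligand of Csf1r, had log2 fold changes of -0.09, -0.04 and -0.11 that did not pass. Cx3cl1, the ligand of Cx3cr1, was the gene that fell, by 0.25, 0.21 and 0.27 on the log2 scale. Neurons make fractalkine, and 6, 5 and 10 of the 12 neuron markers were lower than in Sham in PBS, MSCs and IL-4 MSCs, where 5.03%, 6.89% and 18.5% of all genes were. Their part in the fall of Cx3cl1 was not tested.

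Microglia depend on transforming growth factor beta for their homeostatic state. Tgfb1 rose by 0.80, 0.91 and 1.87, Nrros, which holds its latent form at the cell surface, by 0.61, 0.74 and 1.35, and the receptor subunits Tgfbr2 by 0.46, 0.69 and 0.99 and Tgfbr1 by 0.31, 0.35 and 0.42. Tgfb2 and Smad3 did not pass in any of the 3 groups. Tyrobp, the signalling adaptor shared by many myeloid receptors, rose by 1.36, 1.45 and 1.97. Of the transcription factors, Spi1 (PU.1) rose by 1.24, 1.46 and 2.33, Irf8 by 1.26, 1.36 and 2.01, Runx1 by 1.63, 1.76 and 2.34, Cebpa by 0.96, 0.91 and 1.41 and Bhlhe41 by 0.35, 0.32 and 0.20, whereas Mef2a and Mef2c, which neurons also express, did not pass.

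Between IL-4 MSCs and PBS at 1 wpi, 11 of the 20 were higher and 2 lower, beside 11.2% of all genes that were higher. Against MSCs 9 were higher and none lower, beside 7.66% of all genes that were higher. Spi1 was higher than in PBS by 1.09 (adjusted p = 1.86e-05), Tgfb1 by 1.06 (adjusted p = 1.03e-07) and Nrros by 0.75 (adjusted p = 2.58e-05). Csf1 was higher than in PBS by 0.21 (adjusted p = 0.0432) and did not pass against MSCs, at 0.19 (adjusted p = 0.126). Bhlhe41 and Tgfb2 were the lower ones, at -0.15 (adjusted p = 0.0321) and -0.39 (adjusted p = 0.0476).

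Another list held 24 other genes enriched in microglia. Against Sham, 21 of the 24 rose with PBS, 20 with MSCs and 21 with IL-4 MSCs, none fell, and the medians were 0.51, 0.58 and 0.81. Beside them 8.73%, 11% and 18.4% of all genes rose. In PBS the largest changes were those of Fcrls, an Fc receptor-like protein of microglia, at 1.39, P2ry6, a receptor for UDP that sets off phagocytosis, at 1.10, and Itgam, the integrin chain CD11b, at 1.06. In IL-4 MSCs P2ry6 stood at 2.29 and Cd33 at 1.29. Kctd12 and Adgrg1, the most abundant of those that did not pass in MSCs and in IL-4 MSCs, stood at 0.13 and 0.16 in MSCs and 0.08 and 0.02 in IL-4 MSCs. Against PBS, IL-4 MSCs had 10 of the 24 higher and 1 lower, where 11.2% of all genes were higher. P2ry6 was higher by 1.19 (adjusted p = 5.26e-08), while Fcrls was lower, at -0.57 (adjusted p = 0.0023). Against MSCs 8 were higher, where 7.66% of all genes were, and Fcrls was again the 1 lower gene, at -0.58 (adjusted p = 0.00334).

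Of 23 relatives of the 10 genes, 7, 7 and 11 were higher than in Sham with PBS, MSCs and IL-4 MSCs at that time. In the same order 0, 0 and 2 were lower. Over all genes 8.73%, 11% and 18.4% were higher and 5.03%, 6.89% and 18.5% were lower. The lectin Siglec1, found on monocytes and other macrophages, rose by 1.39, 1.34 and 3.57 and exceeded PBS in the IL-4 MSC group by 2.18 (adjusted p = 5.76e-10). P2ry10, a receptor of the same wider family as P2ry12, had at most 1 count in any Sham mouse and rose to 0.683 to 1.86 CPM in IL-4 MSCs. Kit, a relative of Csf1r, fell in IL-4 MSCs by 0.48 on the log2 scale (adjusted p = 0.0478). Its mice overlapped, at 36.7 to 43.9 CPM there against a wide range of 37.6 to 73.2 CPM in Sham. Pdgfrb, of the same receptor class, stood at 0.13 (adjusted p = 0.192) in IL-4 MSCs.

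Markers of other macrophages and of dividing cells were followed as well. The 16 genes of monocyte-derived macrophages summed to 354 to 487 CPM in Sham. At 1 wpi they summed to 476 to 601 CPM in PBS, 522 to 625 in MSCs and 952 to 1313 in IL-4 MSCs. Higher than in Sham were 8, 12 and 14 of the 16, beside 8.73%, 11% and 18.4% of all genes. Abundant members weigh most in this sum, and those given next were picked after their values were seen. In Sham Gda averaged 259 CPM, Fn1 82.4 and Itga4 41.1, while Ccr2, Ms4a7 and Plac8 averaged 0.98, 0.24 and 0.13 CPM. In IL-4 MSCs Fn1 averaged 370 CPM, Gda 236, Arg1 150 and Chil3 149. Ly6c2, which defines inflammatory monocytes, was at or under 3 counts in the Sham group and at 3.97 CPM on average in IL-4 MSCs. The 10 genes of border-associated macrophages summed to 31.3 to 52.6 CPM in Sham, 58.4 to 81.9 in PBS, 62.7 to 96.4 in MSCs and 206 to 261 in IL-4 MSCs. None of them stayed at or under 3 counts in all mice of a group, and 2, 4 and 8 of the 10 were higher than in Sham. Mrc1, the mannose receptor, exceeded PBS in the IL-4 MSC group by 3.27 (adjusted p = 1.25e-14). At 94.3 CPM on average in that group it weighed most in the sum. Lyve1 and Cd209f, named here after their values were seen, averaged 0.855 and 0.249 CPM there against 0.847 and 0.328 in Sham. All 12 cell cycle genes were higher than in Sham in each injured group, with sums of 18.4 to 30.5 CPM in Sham, 50.8 to 88.6 in PBS, 45.8 to 99.3 in MSCs and 86.05 to 127 in IL-4 MSCs. In IL-4 MSCs other markers stood apart from Sham and PBS too, though not from all MSC mice. Those of endothelium summed to 445 to 548 CPM against 364 to 409.9 in Sham and 367 to 394 in PBS, with 6 of the 10 called higher than in Sham, and those of lymphocytes to 10.6 to 18.5 against 4.19 to 9.38 and 5.38 to 7.62, with 9 of the 12 higher. Markers of regions differed from PBS without overlap, with hippocampus at 298 to 312 against 360 to 407 CPM and striatum at 532 to 1062 against 378 to 512 CPM, while both overlapped with Sham and no single gene of either list was called. The part of each of these in the changes of the 10 genes was not tested. Of the 16 genes of disease-associated microglia, 15 rose in each of the 3 groups, with medians of 0.88, 0.95 and 1.25.

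**Figure D5:**
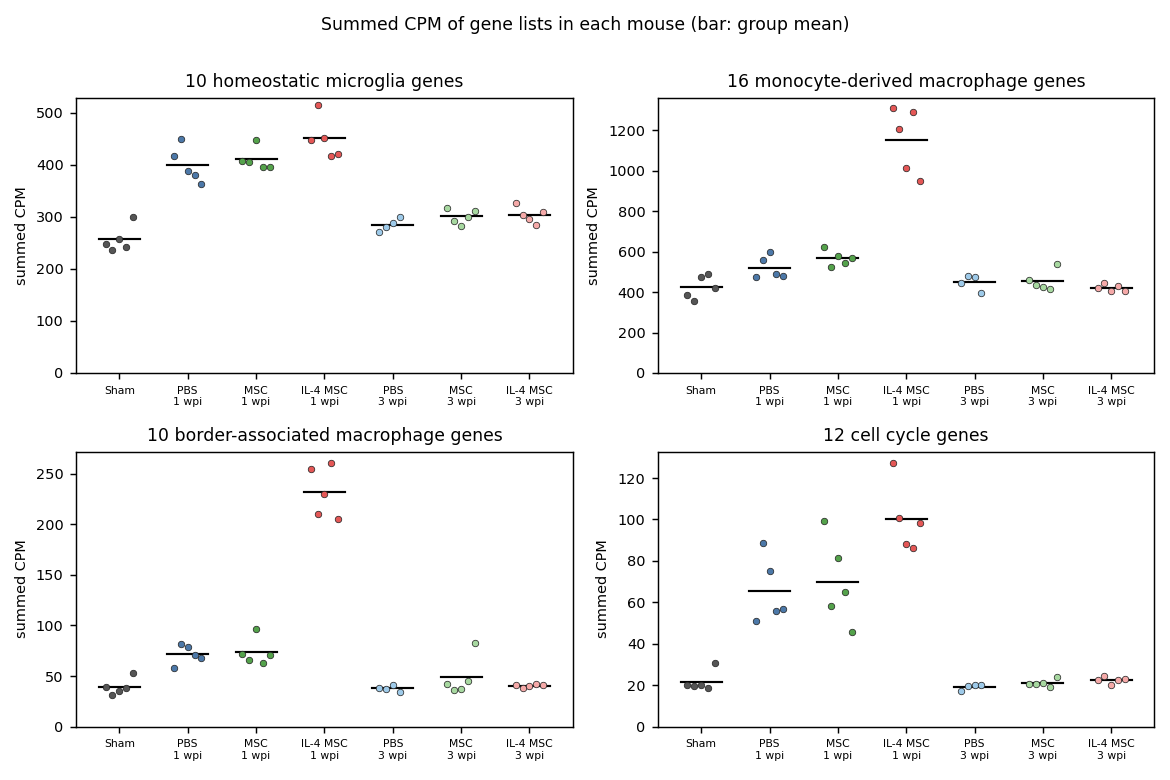
Summed CPM in each mouse (linear axis from 0) of the 10 homeostatic microglia genes and of the lists for monocyte-derived macrophages, border-associated macrophages and the cell cycle, with the bar at the group mean. The sum of the 10 genes ran from 363 to 450.2 in PBS and 418 to 515 in IL-4 MSCs at 1 wpi, which overlap, whereas the macrophage sums of IL-4 MSCs lie above all other groups.

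At 3 wpi the 10 genes stood close to Sham. In PBS none was called, and 0.0292% of all genes were. There 1 gene, Cx3cr1, had an unadjusted p under 0.05 in edgeR, as in DESeq2 (5.34% of all genes in edgeR), and the log2 fold changes lay between 0.03 and 0.23. In MSCs 1 gene, Cx3cr1, was called higher, at 0.35 (SE 0.08, adjusted p = 0.0107), with 1.11% of all genes higher. All 5 MSC mice, 52.9 to 62.5 CPM, lay above the Sham mice, as did 1.87% of all genes. The call was lost without MSC replicate 5 of 3 wpi (adjusted p = 0.0527), and without Sham replicate 5 Olfml3 and Csf1r were called too, with adjusted p-values of 0.0133 and 0.000685.

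In IL-4 MSCs at 3 wpi 4 genes were called higher than in Sham, where 2.76% of all genes were, with a median of 0.26 over the 10 genes. Tmem119 ranged from 19.8 to 22.6 CPM, above all Sham mice (2.4% of all genes), and its log2 fold change was 0.35 (SE 0.08, adjusted p = 0.011). Cx3cr1 ranged from 48.1 to 61.98 CPM, also above all Sham mice, with 0.34 (SE 0.08, adjusted p = 0.00917). Siglech, at 0.31 (SE 0.09, adjusted p = 0.034), and Aif1, at 0.49 (SE 0.14, adjusted p = 0.0347), overlapped with Sham. Aif1 stood at 5.43, 5.18, 4.34, 4.27 and 5.63 CPM in IL-4 MSCs, 3.70, 4.01, 3.62, 3.43 and 5.60 in MSCs and 3.28, 4.41, 3.93 and 4.03 in PBS. Sall1 stood at 30.03 to 31.7 CPM with all mice above Sham, and at 0.17 (SE 0.05, adjusted p = 0.0531) it missed the threshold in edgeR. It passed in DESeq2 (adjusted p = 0.0389), where 5 genes were called, and on library totals (adjusted p = 0.0432).

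These calls were narrow. Without Sham replicate 5 there were 7, with Sall1, Olfml3 and Csf1r added, without Sham replicate 3 or IL-4 MSC replicate 5 of 3 wpi only Cx3cr1 was left, and without Sham replicate 1, 2 or 4 or IL-4 MSC replicate 1 of 3 wpi Tmem119 and Cx3cr1 were left. Against the 3 Sham mice of 3 wpi alone, 1 was left, again Cx3cr1. Markers of striatum, which lies next to the cortex, summed to 475 to 2981 CPM in IL-4 MSCs at 3 wpi, 301 to 656 in PBS and 285 to 1053 in Sham, and 11 of the 13 were higher than in Sham. With a score of these markers as a covariate none of the 10 genes was called, so all 4 calls, of Tmem119, Cx3cr1, Siglech and Aif1, were lost. Tmem119 then stood at 0.35 (adjusted p = 0.0923) and Cx3cr1 at 0.33 (adjusted p = 0.0839).

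Between treatments at 3 wpi none of the 10 genes was called, with 2.94% of all genes called between IL-4 MSCs and PBS, 3.47% between IL-4 MSCs and MSCs and 0.0817% between MSCs and PBS. DESeq2 called none either. At an unadjusted p under 0.05 by edgeR there were 4 genes in IL-4 MSCs against PBS, Tmem119, Siglech, Sall1 and Aif1, all with values above 0, 1 against MSCs, Aif1, and 0 between MSCs and PBS, where 16.9%, 17.9% and 5.73% of all genes had such a p. Tmem119 at 0.26 (adjusted p = 0.0949) and Sall1 at 0.15 (adjusted p = 0.146) had all IL-4 MSC mice above all PBS mice, as did 1.58% of all genes.

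From 1 to 3 wpi most of the genes that had been raised fell. In PBS 7 of the 10 fell, where 4.9% of all genes did, in MSCs 6 (4.93% of all genes) and in IL-4 MSCs 5 (16.6% of all genes). Olfml3 fell by 0.94, 0.75 and 0.82 on the log2 scale in PBS, MSCs and IL-4 MSCs. Csf1r fell by 0.58, 0.51 and 0.88, and Aif1 fell by 0.81, 0.77 and 0.93, all with adjusted p-values of at most 0.000344. For these 3 genes every 3 wpi mouse lay below every 1 wpi mouse of the same treatment, as for 6.25%, 5.24% and 18% of all genes. Tmem119 fell in all 3 treatments, by 0.50, 0.38 and 0.26.

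Cx3cr1 and Gpr34 fell in PBS, by 0.44 and 0.50, and in MSCs, by 0.33 and 0.57, and did not pass in IL-4 MSCs, at -0.14 (adjusted p = 0.153) and -0.33 (adjusted p = 0.0706). In PBS the fall of Gpr34 (adjusted p = 0.0425) was lost without any one of PBS replicates 1, 2 and 3 of 1 wpi and 1 to 4 of 3 wpi, with adjusted p-values of 0.0576 to 0.137. Its fall in MSCs was lost with just the groups compared in the fit (adjusted p = 0.119). Sall1 fell in PBS and IL-4 MSCs, by 0.21 and 0.29. Its fall in PBS was lost without replicate 2 of either week (adjusted p = 0.0822 for 1 wpi and 0.0814 for 3 wpi). P2ry12, P2ry13 and Siglech were not called in any treatment. For Siglech in IL-4 MSCs this was narrow, since RLE size factors, the replicate block and DESeq2 called its fall. Many fits with 1 library left out called it too. Among them were those without Sham replicate 5 and without MSC replicate 5 of 3 wpi, the latter with Gpr34 added. Scaled by library totals alone, or without IL-4 MSC replicate 4 of 1 wpi or replicate 1 of 3 wpi, 8 genes fell in IL-4 MSCs, with Cx3cr1, Gpr34 and Siglech added. P2ry12 stood at 33.6, 33.9, 31.03 and 32.4 CPM in PBS and 33.7, 31.1, 31.2, 32.03 and 32.3 in IL-4 MSCs at 3 wpi, and in MSCs, with the low mouse, at 32.5, 33.2, 30.8, 30.04 and 20.2.

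Whether the fall differed between treatments was tested as a difference of the changes from 1 to 3 wpi. Csf1r fell by 0.36 more on the log2 scale in IL-4 MSCs than in MSCs (SE 0.11, adjusted p = 0.0466), with 5.96% of all genes called in that direction. It was the only one of the 10 genes called, and the call was lost in 12 of the 34 fits that left out 1 library. The fit without MSC replicate 5 of 3 wpi was among those 12. The adjusted p was up to 0.0944, without IL-4 MSC replicate 4 of 3 wpi. Csf1r in IL-4 MSCs against PBS stood at -0.29 (SE 0.12, adjusted p = 0.17) and was called only without Sham replicate 5 or with just the groups compared in the fit. None of the 10 was called between IL-4 MSCs and PBS, where 4.72% of all genes were and 3 of the 10 (Tmem119, Cx3cr1 and Csf1r) had an unadjusted p under 0.05 by edgeR (17.5% of all genes), 2 by DESeq2. Between MSCs and PBS 0 of the 10 and 0% of all genes were called, and 0 of the 10 had an unadjusted p under 0.05 by either tool, beside 3.34% of all genes by edgeR.

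The pattern of each gene over the 6 log2 fold changes from Sham, which share the Sham mice, was compared over the 12267 genes of at least 5 CPM on average by the root mean square difference. Among the 10 genes, Tmem119 and Cx3cr1 were most alike (0.0928) and P2ry12 and Aif1 least alike (0.747). Olfml3 was nearest to Itgam (0.0636), followed by Mt2 and Ctsd, a metallothionein and a lysosomal protease. Csf1r was nearest to Tmem176a (0.045), Adap2 and Anxa3, and Aif1 to Dnase2a (0.0886), Pik3cg and Laptm5. Tmem119 was nearest to Prdx6 (0.062), Serhl and Vsir, Cx3cr1 to Tmem119, Pbxip1 and Plekhf1, and Gpr34 to Tmem119 (0.101), Serhl and Prdx6. P2ry12, whose values stayed near 0, was nearest to Engase (0.0253), Sspn and Lix1, P2ry13 to Islr2, Mlc1 and Morn1, Siglech to Eya4, Ticam1 and Mr1, and Sall1 to Arhgap17, Rp2 and Cdca4.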

How the data were processed

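Reads of bulk RNA libraries were trimmed with cutadapt 2.4, checked with FastQC 0.11.8 and quantified with kallisto 0.46 by the authors (GRCm38, GENCODE annotation), who deposited estimated counts and TPM per gene for 34 libraries and left out 1 PBS library. The submitters' processing notes also name sleuth 0.30 and R 3.6.1. The authors' 63 comparison columns hold their own fold changes and p-values and were not used. The estimated counts deposited by the authors were rounded to whole numbers and fitted in edgeR 4.0.16 (R 4.3.3, limma 3.58.1) with TMM scaling, filterByExpr (minimum count 10, minimum total 15) and the quasi-likelihood test, with groups from the labels and no covariate. P-values were adjusted by Benjamini-Hochberg over 17131 genes, and SE is the absolute log2 fold change divided by the square root of F. The fit was tested on simulated data. CPM were computed on library totals, and 3 counts equal 0.0722 to 0.101 CPM at these depths. The TPM deposited by the authors served only to compare levels between genes.

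Each library is a separate mouse. Replicate pairs differed by more than counting noise (chi-square per gene 3.28 to 52.3 over 66 pairs). Alternatives were other scalings, no filter, only the groups compared, a replicate block, a striatum score as covariate, Sham mice of the same week, DESeq2 1.42.0 and leaving out each library. The 10 genes and all gene lists were chosen with earlier results of these data known. All 10 genes and all ligands and regulators could be named, and of each other list, in a comparison, up to 3 genes with the largest change past the threshold in each direction and up to 2 abundant ones that did not pass. Positions are from GENCODE vM21 on GRCm38 and promoters from RefSeq. Values of some single genes of the lists are not reported here.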

Additional observations from a re-analysis of the deposited data

Results flagged for a closer look

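In 7 of the 70 sets of 1 gene and 1 group, the highest or lowest mouse stood apart from the rest by Dixon's 95% criterion, which chance meets in about 1 of 20. Of these, 3 were Sham replicate 5, with Csf1r at 119.2 CPM (next 83.0), Olfml3 at 26.4 CPM (next 16.6) and Aif1 at 5.03 CPM (next 3.35). MSC replicate 5 of 3 wpi accounted for 2, with P2ry12 at 20.2 CPM as the lowest of its group (next 30.04) and Aif1 at 5.60 CPM as the highest (next 4.01). PBS replicate 2 of 1 wpi had Olfml3 at 52.0 CPM (next 36.5), and MSC replicate 3 of 1 wpi had Aif1 at 8.20 CPM (next 7.09). The change of Csf1r from 1 to 3 wpi differed between IL-4 MSCs and MSCs by -0.36 on the log2 scale in edgeR (adjusted p = 0.0466), a test of the difference itself.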

How the results depend on the processing

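Of the values for called genes, 400 of 415 under other settings and 1826 of 1870 with 1 library left out kept their direction and their side of the threshold. The rest, 15 and 44, lost the threshold, and none changed direction. The 4 calls in IL-4 MSCs against Sham at 3 wpi became 2 with only the groups compared in the fit, 0 with the striatum score and 1 with Sham mice of the same week, and 1 to 7 with 1 library left out. In MSCs against Sham at 3 wpi there were 0 to 3 with 1 library left out. The 5 falls in IL-4 MSCs from 1 to 3 wpi became 8 on library totals and 5 to 8 with 1 library left out. For the week difference between IL-4 MSCs and PBS there was 1 with only the groups compared and 0 to 1 with 1 library left out. Between IL-4 MSCs and MSCs there were 0 with no filter, 0 with the replicate block, and 0 to 1 with 1 library left out. The cause was not tested.

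Direction changed only for genes that were not called. With Sham mice of the same week P2ry12 was at -0.015 and P2ry13 at -0.042 in IL-4 MSCs at 1 wpi, and P2ry12 was at 0.0014 in MSCs at 3 wpi, where leaving out 1 library gave -0.11 to 0.050. Between IL-4 MSCs and PBS at 1 wpi Olfml3 was at 0.011 on library totals (-0.082 to 0.12 with 1 library left out), and Tmem119 ran from -0.040 to 0.10. Between IL-4 MSCs and MSCs Tmem119 was at 0.0057 with RLE size factors, 0.021 on library totals and 0.0060 in DESeq2 (-0.062 to 0.045), Gpr34 ran from -0.073 to 0.018 and Olfml3 from -0.11 to 0.0047.

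Replicate numbers did not pair the mice. Mice of the same number in different groups had a median correlation of deviations of 0.00572 (99 pairs, -0.6 to 0.484). With the replicate as a block, P2ry13 was gained in PBS against Sham at 1 wpi (9 genes), Siglech was gained in the fall of IL-4 MSCs (6 genes) and the Csf1r week difference was lost (adjusted p = 0.0554), and no other call changed.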
